A study of Homo sapiens with 8 samples.

Results

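NOTCH signaling was examined here through 38 genes of the pathway in RCC cells cultured with or without branched-chain amino acids (BCAAs). The genes were chosen by symbol for their place in the pathway: 4 receptors, 5 ligands, 5 genes of receptor glycosylation and furin processing, 2 ADAM proteases, 5 γ-secretase subunits, 5 genes of the nuclear complex, 6 endocytic and ubiquitin regulators and 6 target genes. They are 38 of the 27776 genes listed in either cell line. Of these, 36 were listed and tested in 769-P and 33 in CAKI-1, and 33 were tested in both lines. NOTCH4 and DLL1 in either line, and DLL4, HEY2 and HEYL in CAKI-1, were not analysed here.

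769-P and CAKI-1 are established human cell lines of clear cell renal cell carcinoma (ccRCC). Cells received isoleucine at 0.38 mM, leucine at 0.38 mM and valine at 0.17 mM (with BCAA) or none of them (without BCAA) for 16 hours, with 2 libraries per condition in each line. Per the labels, 769-P cells were kept in RPMI 1640 and CAKI-1 cells in MEM, each with 10% serum, and per the study's methods depletion used a medium lacking amino acids with dialyzed serum. The labels name no genetic change or other agent in any group. No label says that the 2 libraries came from separate cultures, so p-values measure the spread between these libraries, which may be technical.

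NOTCH receptors are single-pass proteins that are cut by furin and decorated with sugars before they reach the cell surface. A ligand of the Jagged or Delta family on a neighbouring cell pulls on the receptor, which is then cut by an ADAM protease and by γ-secretase, and the freed NOTCH intracellular domain (NICD) enters the nucleus. There it joins the DNA-binding protein RBPJ and a Mastermind coactivator and switches on targets such as the HES and HEY repressors and NRARP, which restrains the same complex. NOTCH activity is set by protein cleavage, which RNA-seq does not measure, so the values here are transcript levels of the parts and of the targets.

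Values are normalized read counts: reads per gene divided by a size factor for each library, set separately in each line. Between 30979773 and 64256834 reads lay on listed genes per library, and in 769-P the libraries with BCAA were the deeper (64256834 and 55829324 against 39062721 and 40130258). A gene was called at a limma adjusted p below 0.05 with no minimum fold change, and log2 fold changes are on the log2(value + 1) scale, with over without BCAA, which understates changes of low genes. In bulk RNA, fewer cells that express a gene and less RNA per cell cannot be told apart. Of 6 renal and ccRCC markers, 5 had a row in 769-P and 4 in CAKI-1, with CA9 lacking a row in both and PAX2 in CAKI-1. PAX8, a renal transcription factor, lay between 8700 and 23271 in all 8 libraries. In 769-P, PAX8 fell with BCAA (-0.64 on the log2 scale), and CDH6 (1.20) and PAX2 (0.29) rose, and CDH6 (0.95) rose in CAKI-1. Of 4 leukocyte and 4 endothelial markers, no library summed above 11.4 or 10.3. The 5 fibroblast markers summed to 297.6 to 331.3 with and 248.4 to 264.2 without BCAA in 769-P, with LUM lacking a row. That sum joins opposite moves. PDGFRB rose (1.88 on the log2 scale), and COL1A1 lay lower with BCAA (178.2 and 145.4 against 214.9 and 212.8) without a call. In CAKI-1 the fibroblast markers summed to 125022 to 149608 with and 102482 to 120309 without, nearly all of it COL1A1. The part of these markers in the results was not tested.

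The promoters of 3 target genes that are followed through the results are shown because RBPJ recognizes TGGGAA, set in capitals here. Each is the 250 bases before the RefSeq start site (GRCh38.p14), 5′ to 3′ on the gene's strand, namely HES1 at chr3:194135898-194136147 on the plus strand, HES4 at chr1:1000098-1000347 on the minus strand and NRARP at chr9:137302272-137302521 on the minus strand.
HES1: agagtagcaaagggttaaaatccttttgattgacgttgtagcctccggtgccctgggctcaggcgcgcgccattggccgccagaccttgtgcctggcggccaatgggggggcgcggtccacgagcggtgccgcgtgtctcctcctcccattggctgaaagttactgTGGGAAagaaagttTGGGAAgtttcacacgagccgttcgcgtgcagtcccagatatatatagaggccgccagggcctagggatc
HES4: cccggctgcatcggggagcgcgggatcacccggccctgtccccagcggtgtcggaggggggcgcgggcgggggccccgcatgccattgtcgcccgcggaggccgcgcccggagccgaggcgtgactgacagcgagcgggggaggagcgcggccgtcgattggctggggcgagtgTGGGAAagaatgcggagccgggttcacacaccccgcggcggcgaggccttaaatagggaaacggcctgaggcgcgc
NRARP: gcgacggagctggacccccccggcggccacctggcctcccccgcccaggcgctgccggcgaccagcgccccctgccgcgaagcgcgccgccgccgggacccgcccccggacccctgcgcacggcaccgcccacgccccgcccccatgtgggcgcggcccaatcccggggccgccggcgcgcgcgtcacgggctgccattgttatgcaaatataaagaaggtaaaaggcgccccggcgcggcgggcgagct
The HES1 stretch held TGGGAA from 84 to 79 and again from 70 to 65 bases before the start site, in the same orientation. HES4 held a single copy from 76 to 71 bases before its start, and NRARP held none in either orientation. TGGGAA or its reverse complement TTCCCA lay in 24.0% of 35116 RefSeq promoter windows of 300 bases and in 13 of 41 windows belonging to 32 members. Its longer form GTGGGAA, every copy of which also counts as TGGGAA, lay in 6.25% of all windows and in 6 member windows, those of HES1, HES4, HEY2, HEYL, RBPJ and SPEN. These are exact matches of letters and not measured binding. Variant forms of the motif were not searched for, so the number of RBPJ sites in a promoter is not given.

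In 769-P, 4 members rose and 14 fell with BCAA, while 20.3% of all tested genes rose and 18.2% fell. NOTCH1, HEY1, HES4, NRARP, SPEN and both ADAM proteases were among those that fell, and NOTCH3, LFNG, FURIN and APH1A rose. In CAKI-1, 3 members rose (RBPJ, MAML1 and POFUT1) and 6 fell (RFNG, APH1B, DTX3, PSEN2, NOTCH2 and NCSTN), beside 10.8% and 9.05% of all genes. The median log2 fold change over the members was -0.16 in 769-P, where that of all tested genes was -0.02, and 0.00 in CAKI-1, where that of all genes was -0.01. With any 1 library left out, 1 to 2 rises and 2 to 6 falls were still called in 769-P and 0 of either in CAKI-1, and only LFNG, ADAM10 and HEY1 in 769-P kept their calls under each omission. No called log2 fold change changed sign. Members are mostly abundant, and abundant genes were called more often. Where the mean value reached 100 or more, 13 of 29 members (44.8%) and 28.9% of all genes fell in 769-P, and 3 members (10.3%) and 34.1% of all genes rose. The same shares in CAKI-1 were 22.2% of 27 members and 15.5% of all genes for falls, and 11.1% and 18.7% for rises.

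**Figure D1:**
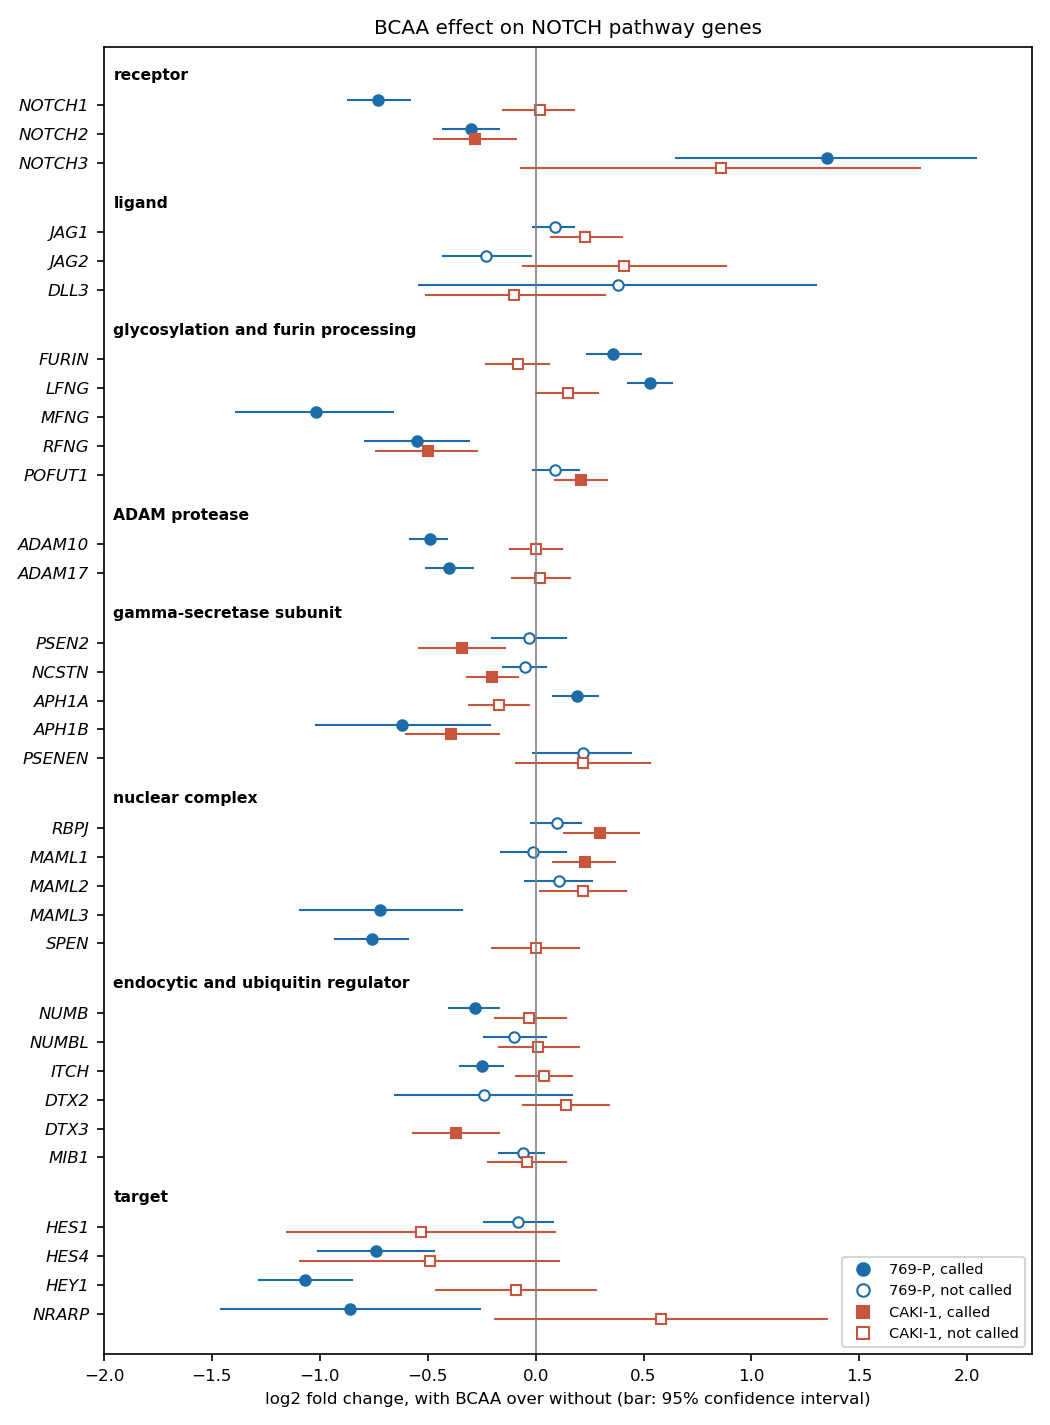
Log2 fold change with over without BCAA (x axis) of each member with enough reads, by role, in 769-P (circles) and CAKI-1 (squares), with 95% confidence intervals from limma (n = 2 libraries per condition). Filled symbols passed an adjusted p of 0.05. In 769-P the symbols reach from -1.07 for HEY1 to 1.35 for NOTCH3, and the 4 target genes lie at or left of -0.08.

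The receptors moved in different directions in 769-P. NOTCH1, a receptor activated by Jagged and Delta ligands, was at 5387 and 4565 with BCAA and at 8096 and 8308 without. Both libraries with BCAA lay below both without, and the log2 fold change was -0.73 (SE 0.07, limma adjusted p = 3.3e-06). In CAKI-1, NOTCH1 was at 1951 and 1760 with BCAA and at 1775 and 1893 without, so that the conditions overlapped, and its log2 fold change was 0.02 (95% confidence interval -0.15 to 0.18).

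NOTCH2 was the most abundant receptor transcript per kilobase in both lines. In 769-P it was at 16605 and 14311 with BCAA and 18702 and 19273 without, a log2 fold change of -0.30 (SE 0.06, limma adjusted p = 0.0016). Its call there was lost, at -0.11, once fold changes were corrected for GC content and transcript length. In CAKI-1 it was at 12474 and 12666 with BCAA and 13604 and 17124 without, at -0.28 (SE 0.09, limma adjusted p = 0.045). That CAKI-1 call was lost under 5 of 13 alternative settings. NOTCH2 shares sequence with the NOTCH2NL copies, so its counts are uncertain.

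NOTCH3, a receptor best known from vascular smooth muscle, was scarce and showed the steepest rise of the members in 769-P. It was at 92.5 and 63.3 with BCAA and at 32.3 and 26.9 without, a log2 fold change of 1.35 (SE 0.32, limma adjusted p = 0.0049). In CAKI-1 it was at 34.0 and 40.8 with BCAA and at 14.3 and 28.3 without. Both CAKI-1 libraries with BCAA lay above both without, yet the log2 fold change of 0.86 did not pass (95% confidence interval -0.07 to 1.78, limma adjusted p = 0.19).

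Divided by exon length, NOTCH1 made up 34.2% and 33.9% of the 3 receptor transcripts in 769-P with BCAA and 41.1% and 41.1% without. NOTCH2 took 65.1% and 65.6% with BCAA and 58.7% and 58.8% without. In CAKI-1, NOTCH1 made up 20.1% and 18.3% with BCAA and 17.4% and 15.1% without. The NOTCH1 share thus lay lower with BCAA in 769-P and higher with BCAA in CAKI-1, in every library. In CAKI-1, NOTCH1 itself was at a log2 fold change of 0.02, and its higher share there goes with the lower NOTCH2. That NOTCH2 call was lost under 5 of 13 alternative settings, and NOTCH2 counts are uncertain. NOTCH3 stayed at or under 0.649% of receptor transcripts in all 8 libraries.

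By limma, 0 ligands were called in either line, beside 38.4% of all genes in 769-P and 19.9% in CAKI-1. At an unadjusted p under 0.05 there was 1 in each, JAG2 in 769-P and JAG1 in CAKI-1, while edgeR called JAG1 in 769-P with TMM scaling and JAG2 with upper-quartile scaling, and DESeq2 called JAG1 in CAKI-1. JAG1, the Jagged ligand, was the dominant one, at 21491 and 20176 with BCAA and 19427 and 19767 without in 769-P, a log2 fold change of 0.09 (95% confidence interval -0.01 to 0.18). In CAKI-1 it was at 5987 and 5303 with BCAA and 4520 and 5077 without, and here the conditions did not overlap. That log2 fold change of 0.23 lay just outside the threshold (SE 0.08, limma adjusted p = 0.051) and passed under 4 of 13 alternative settings. Per kilobase, JAG1 made up 95.2% to 96.2% of JAG1, JAG2 and DLL3 transcripts in 769-P and 89.1% to 91.4% in CAKI-1.

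JAG2, the other Jagged ligand, was at 512.6 and 486.6 with BCAA and 591.2 and 578.4 without in 769-P (log2 fold change -0.23, limma adjusted p = 0.076). In CAKI-1 it was at 122.6 and 105.7 with BCAA and 79.8 and 91.4 without (0.41, limma adjusted p = 0.22). The conditions did not overlap in either line and lay in opposite order. In 7.33% of its exon length JAG2 overlaps another gene on the same strand. DLL3, an unusual Delta family member that restrains NOTCH within the cell, was at 31.1 and 30.8 with BCAA and 32.3 and 17.1 without in 769-P. In CAKI-1 it was at 109.0 and 119.8 with BCAA and 122.6 and 122.3 without. DLL4, an endothelial ligand, had 4 and 1 reads with BCAA and 2 and 1 without in 769-P, too few for a fold change.

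**Figure D2:**
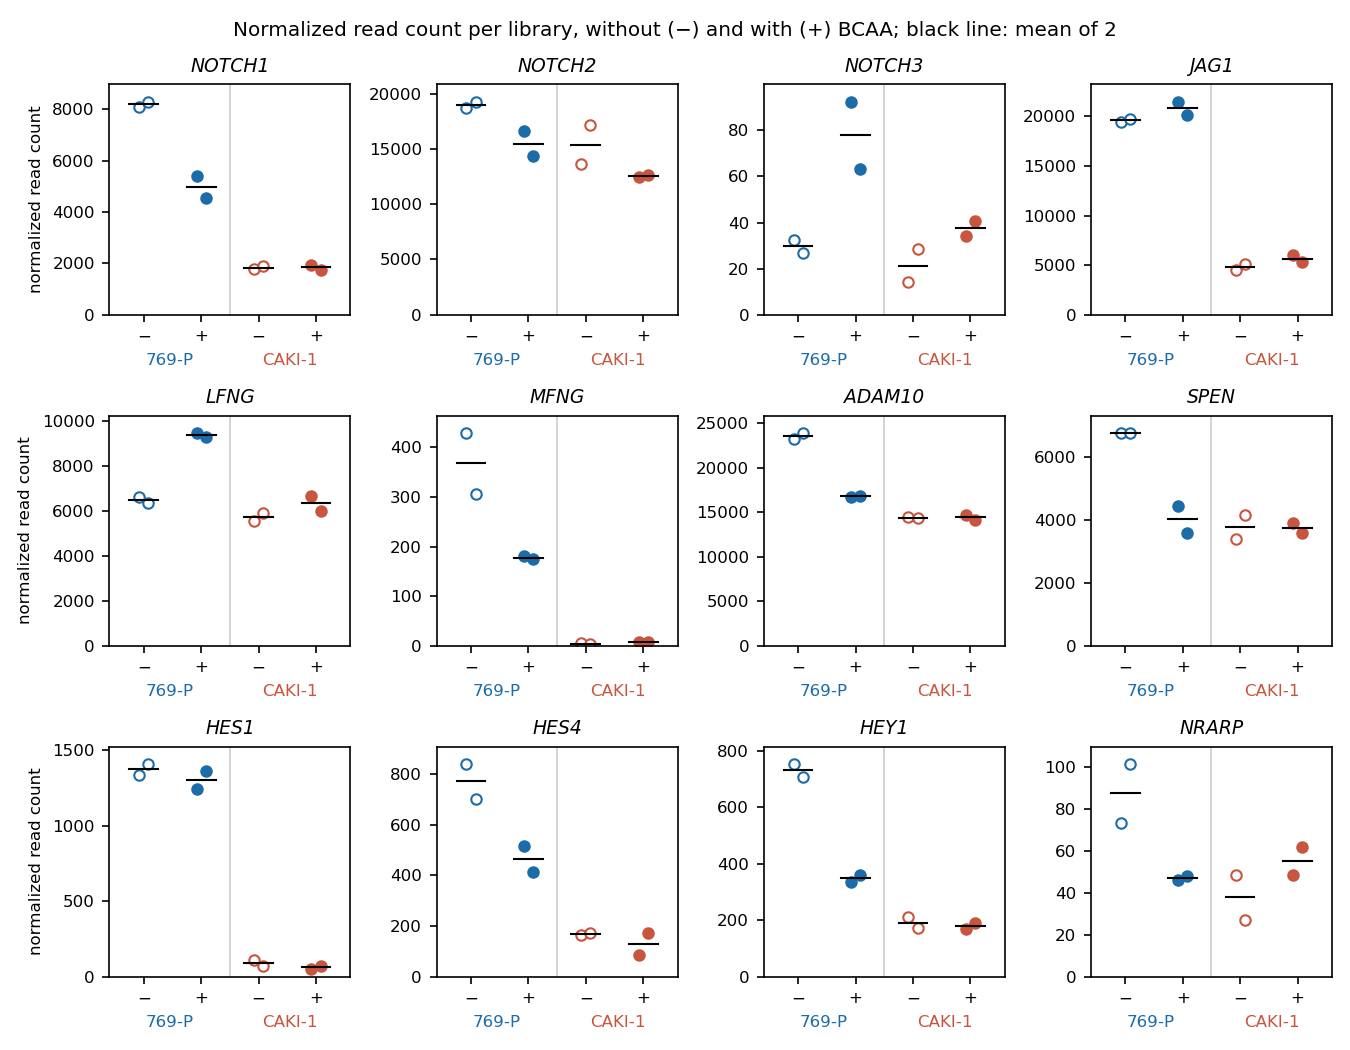
Normalized read count (linear y axis from 0) of 12 members in each library, without (−, open) and with (+, filled) BCAA, in 769-P (blue) and CAKI-1 (red), with the black line at the mean of 2 libraries. NOTCH1, ADAM10, SPEN, HES4 and HEY1 lie lower with BCAA in 769-P, and HES1 stays between 1242 and 1412 there.

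The enzymes that modify the receptor on its way to the surface split by direction. LFNG, MFNG and RFNG are the Fringe enzymes, which extend O-fucose on NOTCH and thereby tune which ligands it answers. In 769-P, LFNG was at 9491 and 9283 with BCAA and 6630 and 6369 without, a log2 fold change of 0.53 (SE 0.04, limma adjusted p = 1.6e-06). MFNG went the other way, at 181.2 and 174.4 with BCAA and 429.8 and 305.7 without (-1.02, SE 0.17, limma adjusted p = 0.00033). RFNG also fell, at 458.7 and 569.5 with BCAA and 739.1 and 758.2 without (-0.55, SE 0.11, limma adjusted p = 0.0015). Thus 1 Fringe transcript rose and 2 fell in the same libraries.

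In CAKI-1, LFNG was at 6661 and 6010 with BCAA and 5555 and 5887 without, which did not pass (0.15, limma adjusted p = 0.15). MFNG had only 8 and 10 reads with BCAA and 5 and 3 without, and no fold change is given. RFNG fell as in 769-P, from 1295 and 1367 without BCAA to 832.8 and 1058 with it (-0.50, SE 0.11, limma adjusted p = 0.0063). The RFNG exons overlap those of GPS1 on the opposite strand over 21.6% of their length, and whether the counting used strand is not given in the sources used here.

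POFUT1, which adds the O-fucose that Fringe enzymes extend, was at 5853 and 5514 with BCAA and 5361 and 5278 without in 769-P and was not called there (0.09). In CAKI-1 it rose, at 6368 and 6112 with BCAA and 5399 and 5397 without (0.21, SE 0.06, limma adjusted p = 0.023). FURIN, the convertase that makes the first cut in the receptor, rose in 769-P, at 13642 and 11919 with BCAA and 9900 and 9912 without (0.36, SE 0.06, limma adjusted p = 0.00027). In CAKI-1 it was at 1882 and 1844 with BCAA and 1948 and 2000 without (-0.08, limma adjusted p = 0.44).

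Both ADAM proteases of the list fell in 769-P. ADAM10 was at 16762 and 16848 with BCAA and 23281 and 23962 without (-0.49, SE 0.04, limma adjusted p = 9.1e-07). ADAM17 was at 4518 and 4288 with BCAA and 5726 and 5894 without (-0.40, SE 0.05, limma adjusted p = 3.8e-05). For ADAM17, 13.6% of the exon length overlaps genes on the opposite strand. Replicates of ADAM10 lay within a narrow band beside the gap between conditions. In CAKI-1, ADAM10 was at 14743 and 14100 with BCAA and 14462 and 14348 without, a log2 fold change of 0.00 with a 95% confidence interval of -0.12 to 0.12. ADAM17 in CAKI-1 was at 0.02 (-0.11 to 0.16), and its values of 3385 and 3460 with BCAA lay within those of 3259 and 3472 without.

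Transcripts of γ-secretase, the complex that frees the NICD, gave a different set of calls in each line. When the effect was compared between the lines, APH1A alone of the 5 subunits was called. The difference was 0.31 for PSEN2 (limma adjusted p = 0.086) and 0.15 for NCSTN (limma adjusted p = 0.13). PSEN2, a catalytic subunit, was at 803.7 and 839.7 with BCAA and 838.4 and 836.5 without in 769-P (-0.03). In CAKI-1 it fell, at 878.5 and 1027 with BCAA and 1196 and 1210 without (-0.34, SE 0.09, limma adjusted p = 0.021). NCSTN, which receives the substrate, was at 7419 and 7427 with BCAA and 7518 and 7844 without in 769-P (-0.05). In CAKI-1 it fell, at 6249 and 6442 with BCAA and 7369 and 7210 without (-0.20, SE 0.06, limma adjusted p = 0.025).

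APH1A and APH1B are alternative scaffold subunits. APH1A rose in 769-P, at 7416 and 7738 with BCAA and 6453 and 6879 without (0.19, SE 0.05, limma adjusted p = 0.0098), and 14.1% of its exon length overlaps another gene. In CAKI-1 it was at 5068 and 5602 with BCAA and 6071 and 5937 without, the opposite order, and did not pass (-0.17, limma adjusted p = 0.083). APH1B fell in 769-P, at 108.4 and 120.6 with BCAA and 159.0 and 194.4 without (-0.62, SE 0.18, limma adjusted p = 0.019). It fell in CAKI-1 as well, at 619.7 and 716.4 with BCAA and 849.7 and 891.8 without (-0.39, SE 0.10, limma adjusted p = 0.016). PSENEN, the smallest subunit, was not called in either line, with a log2 fold change of 0.22 in each and 41% of its exon length under genes on the opposite strand.

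Of the 5 nuclear complex genes, 2 rose in CAKI-1 and 2 fell in 769-P, beside 10.8% and 18.2% of all genes. When the effect was compared between the lines, SPEN alone of the 5 was called. The difference was -0.20 for RBPJ (limma adjusted p = 0.17) and -0.24 for MAML1 (limma adjusted p = 0.11), and MAML3 had few reads in CAKI-1. RBPJ, the DNA-binding partner of the NICD, was at 3842 and 3317 with BCAA and 3023 and 2772 without in CAKI-1, a rise of 0.30 on the log2 scale (SE 0.08, limma adjusted p = 0.019). In 769-P it was at 3491 and 3385 with BCAA and 3177 and 3249 without (0.10, limma adjusted p = 0.17). MAML1, a Mastermind coactivator, rose in CAKI-1 at 2491 and 2450 with BCAA and 2157 and 2068 without (0.23, SE 0.06, limma adjusted p = 0.030). In 769-P it was at 5308 and 4601 with BCAA and 4801 and 5157 without (-0.01). Its paralog MAML2 was at 0.11 in 769-P and 0.22 in CAKI-1 and passed in neither.

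MAML3 fell in 769-P, at 131.9 and 140.2 with BCAA and 198.7 and 253.1 without (-0.72, SE 0.17, limma adjusted p = 0.0054). In CAKI-1 it had 1 and 0 reads with BCAA and 2 and 7 without. SPEN, a large repressor that binds RBPJ when NICD is absent, fell in 769-P from 6769 and 6785 without BCAA to 4454 and 3591 with it (-0.76, SE 0.08, limma adjusted p = 9.4e-06). In CAKI-1, SPEN was at 3913 and 3589 with BCAA, inside its range of 3381 and 4155 without.

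NUMB and ITCH, an endocytic adaptor and a ubiquitin ligase that lower NOTCH at the membrane, both fell in 769-P. NUMB was at 2919 and 2846 with BCAA and 3555 and 3463 without (-0.28, SE 0.05, limma adjusted p = 0.00085). ITCH was at 7088 and 6838 with BCAA and 8157 and 8374 without (-0.25, SE 0.04, limma adjusted p = 0.00079). In CAKI-1 neither was called, with NUMB at 1755 and 1958 with BCAA and 1925 and 1849 without, and ITCH at 5947 and 5623 with BCAA and 5756 and 5510 without. DTX3, a Deltex family ubiquitin ligase, fell in CAKI-1 at 570.1 and 570.0 with BCAA and 729.9 and 745.1 without (-0.37, SE 0.09, limma adjusted p = 0.013). In 769-P, DTX3 had 0 and 2 reads with BCAA and 2 and 2 without. NUMBL, DTX2 and MIB1, the ligase that starts ligand endocytosis, were not called by limma in either line, with log2 fold changes between -0.24 and 0.14, while edgeR with upper-quartile scaling called MIB1 lower in 769-P.

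By limma, 0 target genes were called higher in either line, beside 20.3% of all genes in 769-P and 10.8% in CAKI-1. Among so few targets, 0 rises is not set apart from those shares. In CAKI-1 no target had an unadjusted p under 0.05, and none was called by edgeR or DESeq2. Of the 6 targets in 769-P, 3 fell, beside 18.2% of all genes. HES1 was not called, and HEY2 and HEYL had too few reads. HEY1, a NOTCH-induced repressor, was at 335.9 and 361.7 with BCAA and 755.2 and 706.8 without, a log2 fold change of -1.07 (SE 0.10, limma adjusted p = 3.4e-06). HES4, a HES family repressor with 1 exact copy of TGGGAA in the stretch shown above, was at 514.1 and 412.2 with BCAA and 840.9 and 700.7 without (-0.74, SE 0.12, limma adjusted p = 0.00043). NRARP, which held no exact copy there, was at 46.2 and 47.9 with BCAA and 73.3 and 101.5 without (-0.86, SE 0.27, limma adjusted p = 0.026). The NRARP call was lost under 5 of 13 alternative settings.

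HES1, the best-known NOTCH target, was at 1242 and 1364 with BCAA and 1338 and 1412 without in 769-P. The conditions overlapped, and the log2 fold change was -0.08 with a 95% confidence interval of -0.24 to 0.08 (limma adjusted p = 0.44). It became a fall of 0.19 on the log2 scale that passed once fold changes were corrected for GC content and transcript length. In CAKI-1, HES1 was at 53.5 and 69.1 with BCAA and 110.2 and 70.8 without, at -0.53 with an interval of -1.15 to 0.09 (limma adjusted p = 0.23). With 1 library left out, the CAKI-1 value ran from -0.85 (without replicate 2 of the libraries without BCAA) to -0.22 (without replicate 1 of them), and it was called in no case.

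The other CAKI-1 targets were likewise not called. HES4 was at 84.6 and 170.6 with BCAA and 164.4 and 173.7 without, where a single library with BCAA was low. Without that library, its log2 fold change of -0.49 became 0.01. HEY1 was at 168.3 and 189.7 with BCAA and 211.9 and 171.2 without (-0.09, 95% confidence interval -0.46 to 0.28). NRARP was at 48.6 and 61.6 with BCAA and 48.5 and 27.0 without (0.58, limma adjusted p = 0.29). In 769-P, HEY2 had 8 and 2 reads with BCAA and 6 and 1 without, and HEYL had 1 and 0 with and 0 and 4 without. In the same libraries SNAI1, an EMT transcription factor outside the 38 genes, rose in both lines, by 2.68 in 769-P (SE 0.30, limma adjusted p = 1.7e-05) and 1.10 in CAKI-1 (SE 0.15, limma adjusted p = 0.00048), both on the log2 scale.

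Of the 33 members tested in both lines, 3 fell in both (APH1B, NOTCH2 and RFNG), none rose in both, and none was called in opposite directions. Of all 19406 genes tested in both lines, 5.83% fell in both, 8.53% rose in both and 1.32% were called in opposite directions. A further 11 members fell and 4 rose in 769-P without a call in CAKI-1, beside 13.9% and 13.4% of all genes. Another 3 fell (DTX3, NCSTN and PSEN2) and 3 rose (MAML1, POFUT1 and RBPJ) in CAKI-1 without a call in 769-P, beside 3.27% and 2.52% of all genes. The remaining 9 members were called in neither, as were 51.1% of all genes. Whether the effects differed was tested as an interaction in a fit over the 8 libraries. It was called for 12 of 33 members (36.4%), beside 21.1% of all genes tested in both lines. With means of at least 100 the shares were 36.0% of 25 members and 33.3% of all genes.

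Of the 12 members whose effect differed, it was lower in 769-P than in CAKI-1 for 9 (10.1% of all genes) and higher for 3 (10.9% of all genes). MFNG is among the 9, with few reads in CAKI-1. With means of at least 100, 6 members and 15.9% of all genes were lower, and 3 members and 17.4% of all genes were higher. The differences of log2 fold change were -0.74 for NOTCH1 (SE 0.11, limma adjusted p = 0.00026), -0.49 for ADAM10 (SE 0.06, limma adjusted p = 8.9e-05), -0.76 for SPEN (SE 0.14, limma adjusted p = 0.0016) and -0.97 for HEY1 (SE 0.20, limma adjusted p = 0.0030). On the other side stood FURIN at 0.45, LFNG at 0.38 and APH1A at 0.36. HES1 (0.45, 95% confidence interval -0.11 to 1.02), HES4 (-0.25, -0.99 to 0.49), NOTCH3 (0.49, -0.71 to 1.69) and NOTCH2 (-0.02, -0.29 to 0.25) were not shown to differ between the lines. With 1 library left out, some differences that had not passed were called. They were 0.77 for HES1 without replicate 2 of CAKI-1 without BCAA, and -0.75 for HES4 and -0.34 for NUMB without replicate 1 of CAKI-1 with BCAA. Without replicate 2 of CAKI-1 with BCAA, PSEN2 (0.42) and RBPJ (-0.31) were called, and without replicate 1 of 769-P with BCAA, MAML1 (-0.34) was.

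**Figure D3:**
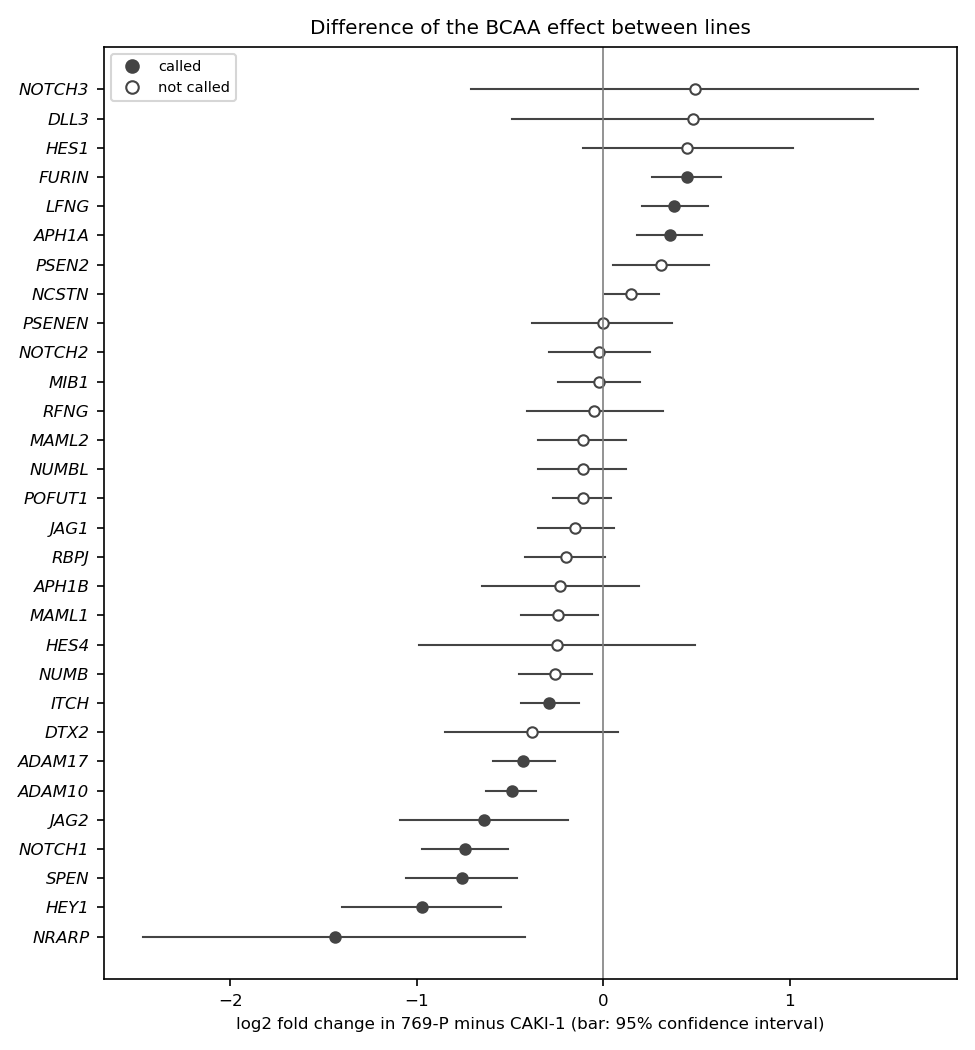
Difference of the log2 fold change with over without BCAA, 769-P minus CAKI-1 (x axis), for 30 members with enough reads in both lines, ordered by size, with 95% confidence intervals from the limma interaction term over 8 libraries. Filled circles passed an adjusted p of 0.05, and they run from -1.44 for NRARP to 0.45 for FURIN.

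Within a line, levels can be ordered per kilobase of exon. In 769-P the order began with FURIN (2399 normalized reads per kilobase), LFNG (2324), JAG1 (2174) and APH1A (2050.0), with NOTCH1 in place 13 and NOTCH3 in place 32 of 36. In CAKI-1 it began with LFNG (1764), NCSTN (1633) and APH1A (1632), and FURIN stood in place 9. NCSTN and APH1A in CAKI-1 did not differ beyond the spread of their libraries. These means pool both conditions, and the order differed within each. In 769-P it was LFNG (2746), FURIN (2703), JAG1 (2241) and APH1A (2182) with BCAA, and JAG1 (2108), FURIN (2095), APH1A (1919) and LFNG (1902) without. The CAKI-1 order was LFNG (1854), APH1A (1536) and NCSTN (1520.0) with BCAA, and NCSTN (1746), APH1A (1729) and LFNG (1674) without.

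The lines were normalized apart, so levels across them are given side by side as reads scaled to the library total (RPM), with no test. HES1 lay at 25.5 to 28.8 RPM in 769-P and 1.36 to 2.79 in CAKI-1. HES4 lay at 8.63 to 17.3 in 769-P and 2.15 to 4.36 in CAKI-1, while NRARP overlapped, at 0.949 to 2.07 and 0.678 to 1.57. APH1B went the other way, at 2.23 to 3.96 in 769-P and 15.7 to 22.4 in CAKI-1. DTX3 and MAML3 were near absent from 1 line each, with DTX3 at 14.5 to 18.7 in CAKI-1 and at most 0.0512 in 769-P, and MAML3 at 2.71 to 5.16 in 769-P and at most 0.226 in CAKI-1.

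**Figure D4:**
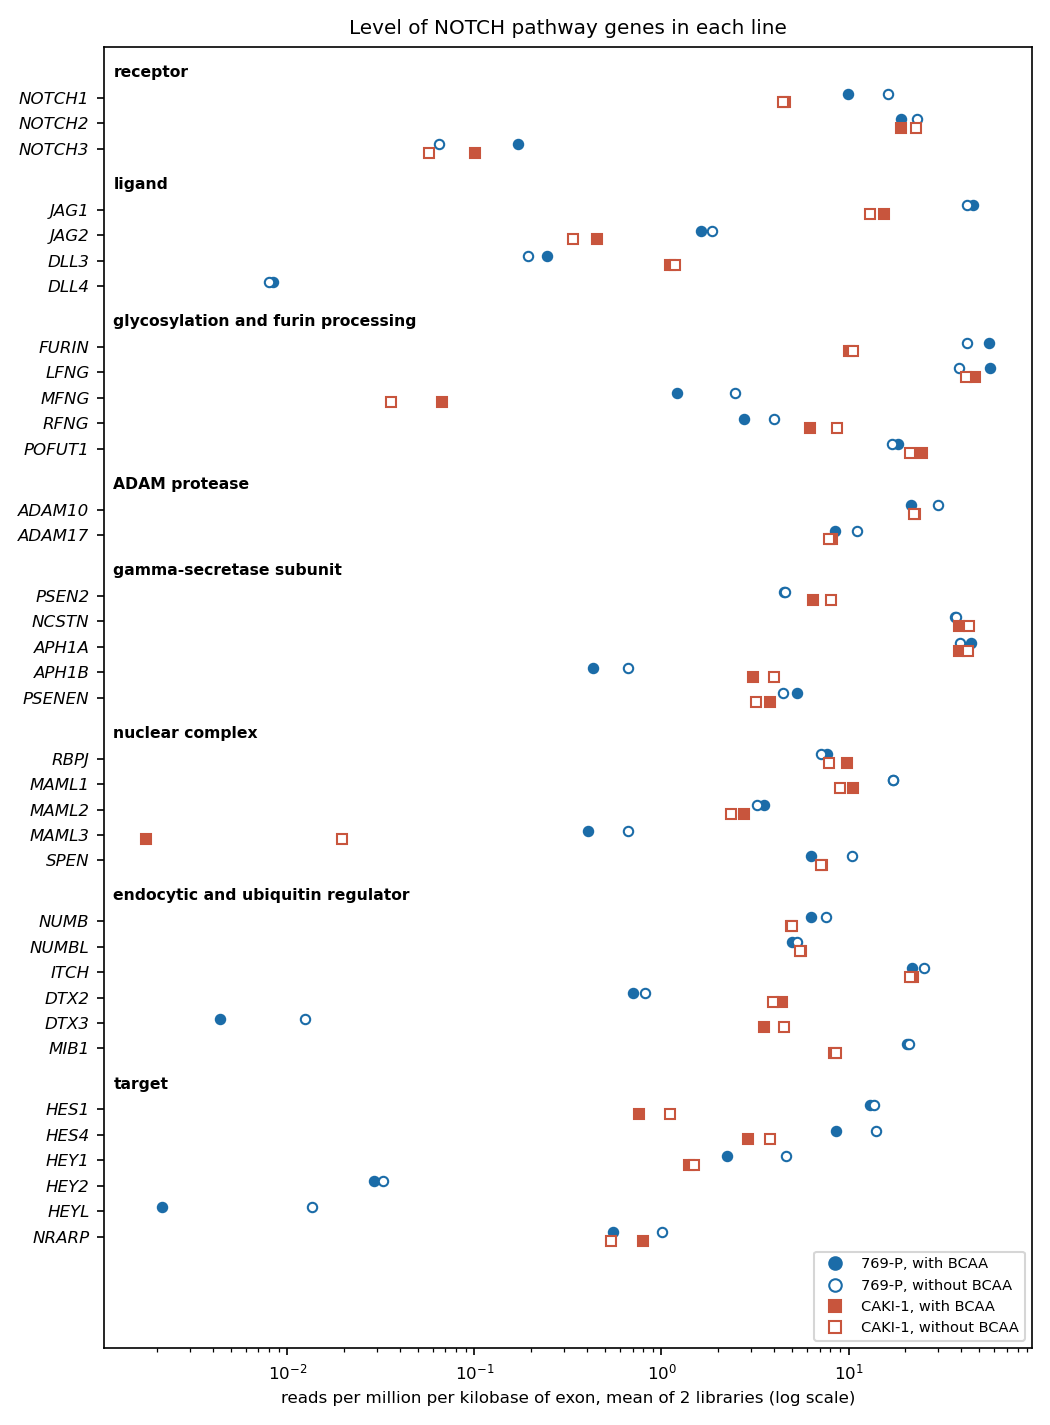
RPM per kilobase of exon (log x axis, mean of 2 libraries) of each listed member, by role, in 769-P (circles) and CAKI-1 (squares), with (filled) and without (open) BCAA. HES1 stands near 13 in 769-P and near 1 in CAKI-1, while NOTCH2 and ADAM10 lie close together in the lines.

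A second list of 36 pathway genes outside the members, of ligand-like proteins, ubiquitin ligases, coactivators, corepressors and further HES genes, was read in the same fits. In 769-P, 33 were tested, 11 rose and 12 fell, beside 20.3% and 18.2% of all genes. In CAKI-1, 33 were tested, 3 rose and 4 fell, beside 10.8% and 9.05% of all genes. Abundant genes were called more often, and this list was not split by level. With means of at least 100, 34.1% of all genes rose and 28.9% fell in 769-P, and 18.7% rose and 15.5% fell in CAKI-1. The largest called rises in 769-P were CNTN1 (1.76 on the log2 scale), a cell adhesion protein that can bind NOTCH, and NEURL1B (1.74), a ligand ubiquitin ligase. The largest falls were HES6 (-1.41), a HES family member that opposes HES1, and the histone acetyltransferase CREBBP (-0.75). In CAKI-1 the corepressor TLE3 (0.60) and the deacetylase HDAC1 (0.34) led the rises, and DNER (-1.91), a NOTCH-binding transmembrane protein, and the ubiquitin ligase MIB2 (-0.43) led the falls. The list's median log2 fold change was -0.20 in 769-P and 0.10 in CAKI-1, and its interaction was called for 4 genes higher and 6 lower in 769-P of 32 tested, beside 10.9% and 10.1% of all genes. With means of at least 100 the latter shares were 17.4% and 15.9%.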

How the data were processed

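RNA-seq libraries of 769-P and CAKI-1 cells with or without BCAA were analysed, 2 per condition, grouped by the labels. The deposited signal of a gene, made by the authors separately for each line, is its reads divided by the library's size factor. The submitters' processing notes name Trim Galore, TopHat2 2.1.0, SAMtools 1.3.1, HTSeq 0.6.0, DESeq, DESeq2 and the build hg38. Every value (100%) was a whole multiple of 1 read, so reads were recovered, and no listed gene had fewer than 2 reads in all. Replicates differed by more than sampling noise (chi-square per degree of freedom 3.26 to 11.9).

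Symbols, exon lengths and overlaps came from GENCODE 29 (GRCh38). Members were fitted with all genes by limma 3.58.1 in R 4.3.3 on log2(value + 1), for genes with a mean of at least 1, within each line and without a block, with Benjamini-Hochberg adjustment at 0.05. Differences between lines were the interaction term. An exact permutation of 2 against 2 libraries cannot go below 0.333. No fold change within a line is given where a condition has at most 3 reads in each library or the mean is under 10 reads, but such genes stay in the test between lines (MFNG). On the recovered reads edgeR 4.0.16 called 8794 of 22391 genes in 769-P and 4397 of 21347 in CAKI-1. DESeq2 1.42.0 called 7537 and 3790. The fits were tested on simulated data.

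Same-numbered replicates did not deviate together (correlation -0.0884 in 769-P, 0.0615 in CAKI-1). The members and lists were chosen with earlier results of these data known. Every member is named, with the other pathway genes limited to the 2 largest called rises and falls per line. Alternatives changed the pseudocount, filter, scaling, spread, tool, threshold, depth and libraries. The correction for GC content and length was added after seeing the data.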

Additional observations from a re-analysis of the deposited data

Results flagged for a closer look

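The effect of BCAA differed between 769-P and CAKI-1 for 12 members by the limma interaction test. Each value is the log2 fold change in 769-P minus that in CAKI-1. Of 3 receptors tested, NOTCH1 alone was called, at -0.74 (limma adjusted p = 0.00026). Both ADAM proteases were called, ADAM10 at -0.49 (limma adjusted p = 8.9e-05) and ADAM17 at -0.43 (limma adjusted p = 0.0014). In the nuclear and target groups, SPEN was at -0.76 (limma adjusted p = 0.0016), HEY1 at -0.97 (limma adjusted p = 0.0030) and NRARP at -1.44 (limma adjusted p = 0.046). ITCH was at -0.29 (limma adjusted p = 0.012) and JAG2 at -0.64 (limma adjusted p = 0.044).

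For 3 of the 12 the effect was higher in 769-P, namely FURIN at 0.45 (limma adjusted p = 0.0022), LFNG at 0.38 (limma adjusted p = 0.0038) and APH1A at 0.36 (limma adjusted p = 0.0065). MFNG was at -1.80 (limma adjusted p = 0.013), but it had 3 to 10 reads per library in CAKI-1, so the size of that difference depends on the pseudocount. Groups of 2 libraries are too small for a test of single outlying samples.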

How the results depend on the processing

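With 2 libraries per condition, whether the spread between libraries or the depth limits precision more was not tested. Thinning reads to the smallest library lost the calls of NRARP and APH1B in 769-P and of NOTCH2, PSEN2 and RBPJ in CAKI-1. Of 32 members with enough reads in 769-P, 18 were called. Of these 18, 13 were called under every alternative that kept all libraries and set no fold limit, and 3 (LFNG, ADAM10 and HEY1) also with any 1 library left out. In CAKI-1, 9 of 31 were called, 1 (NCSTN) under every such alternative and 0 with libraries left out. Of the 11 called differences between lines with enough reads, 9 held under every such alternative and 8 also with any library left out, and no called value changed sign. The fold limit can only lower a count by construction. For the left-out libraries, which leave fewer samples, and for the rest, the cause was not tested.

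In 769-P the 4 rises became 1 with a fold change of at least 1.5 and 1 to 2 with 1 library left out, and the 14 falls became 8 and 2 to 6. In CAKI-1 the 3 rises became 0 under quantile normalization, 1 with edgeR and upper-quartile scaling, 0 with the fold limit and 0 with any library left out, and the 6 falls became 3 under quantile normalization, 0 with the fold limit and 0 with any library left out. The 12 differences became 6 with the fold limit and 9 to 13 with a library left out. Same-numbered libraries did not deviate together, and a fit with the replicate block called 4 rises and 14 falls in 769-P, 3 and 6 in CAKI-1 and 10 differences (without JAG2 and NRARP). JAG2 also lost its difference with DESeq2 and with the GC and length correction, and in 6 of 8 omissions of a library. NRARP lost its difference in 5 of 12 alternatives (pseudocount 0.1, no filter, quantile normalization, thinned reads and the block) and in 7 of 8 omissions.

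Changes of sign touched only values that were not called. Under quantile normalization, log2 fold changes in CAKI-1 became -0.03 for NOTCH1, -0.03 for ADAM17, -0.03 for NUMBL and -0.02 for ITCH, and the difference for NOTCH2 became 0.04. With edgeR and upper-quartile scaling they became -0.04 for NOTCH1, -0.03 for ADAM17, -0.05 for NUMBL and -0.02 for ITCH, and with edgeR and TMM scaling MAML1 in 769-P became 0.02. With the GC and length correction, ADAM17 became -0.03 and ITCH -0.04 in CAKI-1, MAML1 became 0.01 in 769-P, and the differences became 0.13 for NOTCH2, 0.01 for RFNG and 0.04 for MIB1. With thinned reads PSEN2 in 769-P became 0.03. With 1 library left out the ranges were -0.06 to 0.09 for NOTCH1, -0.02 to 0.07 for ADAM17, -0.10 to 0.05 for NUMB, -0.08 to 0.10 for NUMBL, -0.14 to 0.06 for MIB1, -0.99 to 0.01 for HES4 and -0.24 to 0.06 for HEY1 in CAKI-1. They were -0.06 to 0.82 for DLL3 and -0.11 to 0.09 for MAML1 in 769-P. For the differences they were -0.19 to 0.15 for NOTCH2, -0.22 to 0.13 for RFNG, -0.12 to 0.08 for MIB1 and -0.75 to 0.25 for HES4.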
